A study of Mus musculus with 14 samples.

Results

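The receptor genes described here are 10 mouse genes whose proteins mark and steer natural killer (NK) cells and innate lymphoid cells (ILC): Ncr1, Klrb1c, Klrk1, Klrd1, Klrc1, Klre1, Klra4, Klra7, Klra8 and Klrg1. They were taken by symbol, and each matched 1 Ensembl identifier among the 48794 genes of the deposited tables. The study set RNA from CD45+ leukocytes, sorted by flow cytometry from liver needle biopsies, at a range of cell numbers beside RNA from whole liver. The sorted groups held 2500, 5000, 10000 or 20000 cells with 3 libraries each (12 in all), and the control group was bulk liver with 2 libraries. All mice were wild type (WT) with no treatment, and the strain, age and sex are not given in the sources used here. The labels do not say that replicate libraries came from different mice or biopsies, so the p-values measure a spread between libraries that may be technical.

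NK cells and ILC1 are abundant lymphocytes of the mouse liver. They carry germline-encoded receptors that either activate the cell, mostly through adaptor proteins with tyrosine motifs, or inhibit it through an immunoreceptor tyrosine-based inhibitory motif (ITIM) in the receptor's own tail, which recruits phosphatases. Many inhibitory receptors read MHC class I on neighbouring cells, while activating ones read stress-induced or viral ligands. T cells share several of them, so none of these genes counts NK cells alone.

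On GRCm38 with GENCODE M21, 9 of the 10 genes lie on chromosome 6 and Ncr1 (ENSMUSG00000062524) lies on chromosome 7 at chr7:4337724-4345164 on the plus strand. Klrg1 (ENSMUSG00000030114) stands apart on chromosome 6 at chr6:122270596-122282882. The other 8 span 1.45 Mb from position 128778485 to 130233322, in the NK gene complex, which holds the C-type lectin-like receptors. In it are Klrb1c (ENSMUSG00000030325), Klre1 (ENSMUSG00000050241), Klrd1 (ENSMUSG00000030165), Klrk1 (ENSMUSG00000030149) and Klrc1 (ENSMUSG00000030167). The 3 Ly49 genes follow, as Klra4 (ENSMUSG00000079852), Klra8 (ENSMUSG00000089727) and Klra7 (ENSMUSG00000067599).

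The first 75 coding bases of 4 members are shown because they hold the part that separates inhibitory from activating receptors of similar sequence. They were read from the GENCODE M21 transcripts, 5′ to 3′ on the coding (minus) strand of chromosome 6, and the capitals mark codon 8.
Klra7: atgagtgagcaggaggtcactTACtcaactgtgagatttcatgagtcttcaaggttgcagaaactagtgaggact
Klrc1: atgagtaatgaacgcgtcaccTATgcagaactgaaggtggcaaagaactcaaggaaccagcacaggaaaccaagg
Klra4: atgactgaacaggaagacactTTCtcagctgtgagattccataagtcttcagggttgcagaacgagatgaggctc
Klra8: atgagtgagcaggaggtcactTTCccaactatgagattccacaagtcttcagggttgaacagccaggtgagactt
The ITIM-type motif searched was isoleucine, valine, leucine or serine, any residue, tyrosine, any pair of residues, and then leucine, valine or isoleucine. Codon 8 reads tyrosine in Klra7 (Ly49G2) and in Klrc1 (NKG2A), both inhibitory, and it is the tyrosine of an ITIM-type match. It reads phenylalanine in Klra4 (Ly49D) and in Klra8 (Ly49H), both activating receptors that signal through the adaptor DAP12. In neither of them do the other residues around codon 8 fit the motif, so the phenylalanine is not the only departure from it. Over the aligned coding sequence Klra4 was 84.8% identical to Klra7 and 79.1% identical to Klra8, and Klra7 was 77.9% identical to Klra8. Among all 10 members, an ITIM-type match within the first 50 residues was found in Klrc1, Klra7 and Klrg1, with its tyrosine at residue 8, 8 and 7.

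Near-identical relatives limit how finely reads can be assigned. Of all 50-base stretches of a member's transcripts, 38.6% of those of Klrc1 also occurred in another gene, mostly Klrc2, which itself had 700 to 1455 counts per sorted library. The share was 33.1% for Klra8, with Klra14-ps (92 to 159 counts per sorted library) as the closest gene and Klra9 (at least 292 counts per sorted library) among the others. It was 12.3% for Klra7, all with Klra13-ps (286 to 570 counts), a gene with about as many reads as Klra7 itself. The share was 17.0% for Klrb1c, 4.68% for Klra4 and 0.308% for Klre1. It was 0% for Ncr1, Klrk1, Klrd1 and Klrg1. For Klrb1c most of the share was with Gm44511 (12.4% of its stretches), an overlapping gene with 0 counts in the sorted and bulk libraries. The sources used here do not give how reads that fit several genes were counted, and the levels of Klrc1, Klra8, Klrb1c and Klra7 are less certain than those of the other members. The Ly49 gene set also differs between inbred strains, and the strain here is not stated.

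Each sorted library held a strong signal of all 10 genes, and bulk liver held next to none. Summed over the members, the 3 libraries of 2500 cells had 1075 to 1344 TPM (a level corrected for gene length and library depth). The sums were 1149 to 1182 TPM at 5000 cells, 1251 to 1363 TPM at 10000 cells and 1194 to 1334 TPM at 20000 cells, against 2.72 and 3.97 TPM in bulk liver. In reads, the 12 sorted libraries held 133144 counts of the 10 genes and both bulk libraries together held 67. All 10 genes had counts in each sorted library, whereas 4 and 6 of the 10 had any in the bulk libraries. In such mixed samples a lower share of NK cells and less receptor RNA per cell cannot be told apart.

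**Figure D1:**
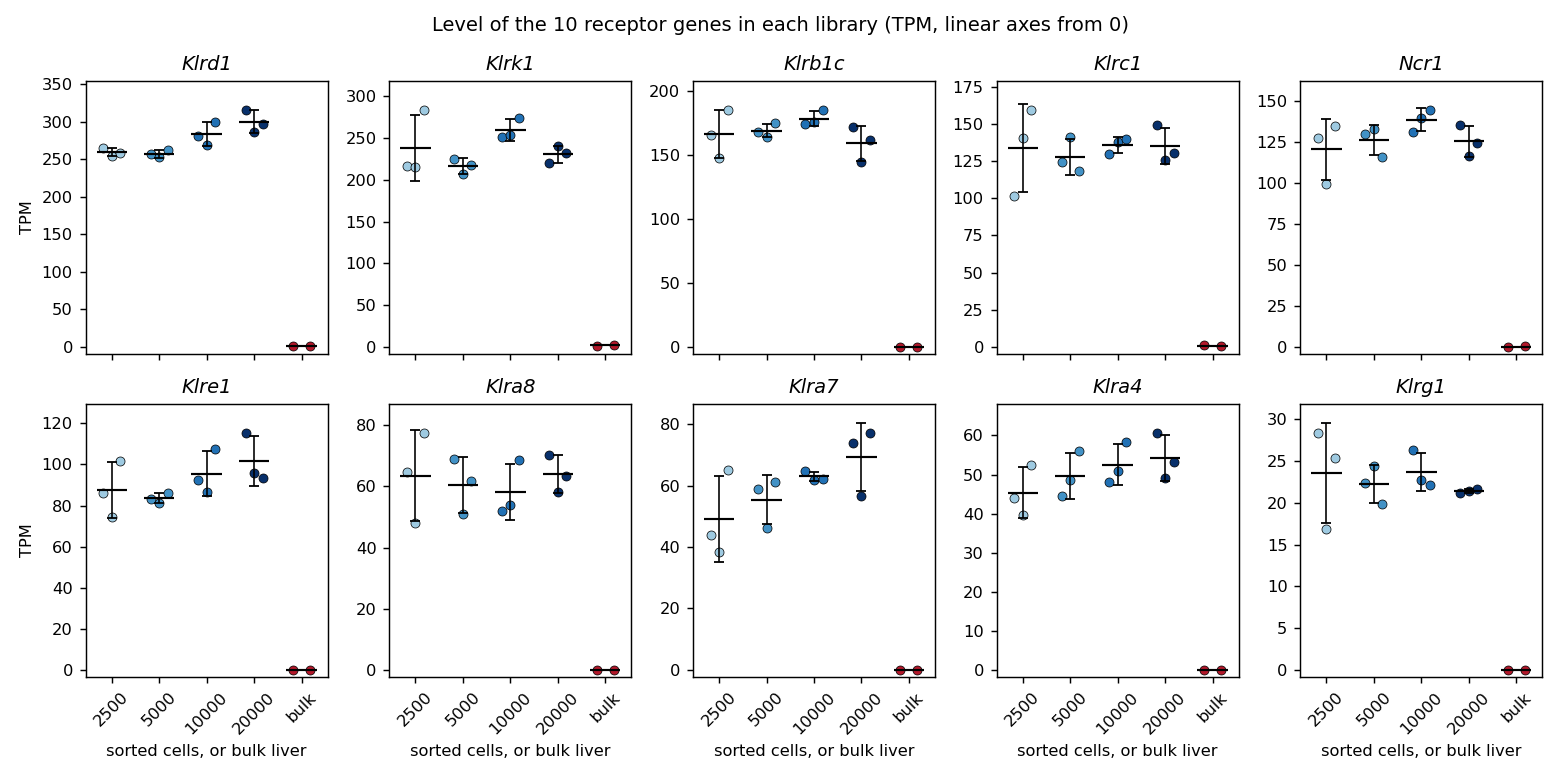
TPM of each receptor gene (linear axes) in every library, by number of sorted cells and in bulk liver; points are libraries, bars the mean, and whiskers the SD of the 3 sorted libraries. For every gene the 12 sorted libraries lie above both bulk libraries, which reach at most 2.17 TPM, for Klrk1.

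The most abundant member was Klrd1, which encodes CD94, the shared partner chain of the NKG2 receptors for the MHC class I-like molecule Qa-1. Its level over the sorted libraries had a lowest, median and highest value of 252, 267 and 316 TPM, against 0.63 and 0.90 TPM in bulk liver. Klrk1 encodes NKG2D, an activating receptor of NK cells and of many CD8 T cells, and had 206, 229 and 284 TPM in sorted cells, against 1.00 and 2.17 TPM in bulk liver. Klrd1 was above Klrk1 in 11 of the 12 sorted libraries.

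Klrb1c encodes NK1.1, an activating receptor widely used to stain mouse NK cells, and ranked next. Its sorted libraries had a lowest, median and highest level of 144, 170 and 185 TPM, against 0 and 0.16 TPM in bulk liver. Klrc1 encodes NKG2A, the inhibitory partner of CD94, and had 102, 134 and 160 TPM in sorted cells, against 0.94 and 0.49 TPM in bulk liver. Ncr1 encodes NKp46, an activating receptor of NK cells and of some ILC, and had 99.5, 130 and 145 TPM in sorted cells, against 0 and 0.25 TPM in bulk liver. Klrc1 and Ncr1 overlapped almost entirely, and Klrc1 was the higher of the pair in 7 of 12 sorted libraries.

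Klre1 forms receptors with KLRI1 or KLRI2 and stood between these and the Ly49 genes, with 74.6, 89.6 and 116 TPM as lowest, median and highest sorted level, against 0.15 and 0 TPM in bulk liver. The 3 Ly49 genes lay close together and lower. Klra8 encodes Ly49H, which recognises a mouse cytomegalovirus protein, and had 47.9, 62.6 and 77.6 TPM in sorted cells. Klra7 encodes Ly49G2, an inhibitory receptor for MHC class I, and had 38.4, 61.6 and 77.3 TPM. Klra4 encodes Ly49D and had 39.7, 50.0 and 60.7 TPM, and all 3 genes were listed at 0 TPM in both bulk libraries. Their sorted ranges overlapped, since Klra8 was above Klra7 in 8 of 12 libraries and Klra7 above Klra4 in 9 of 12.

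Klrg1, an inhibitory receptor for cadherins found on mature NK cells and on effector T cells, was the lowest member, with 16.8, 22.3 and 28.4 TPM in sorted cells and 0 TPM in both bulk libraries. The mean of Klrd1 (275 ± 20.96 TPM, SD, n = 12) was 12.1-fold that of Klrg1 (22.7 ± 3.07 TPM). Apart from Klrd1 over Klrk1, Klrc1 over Ncr1 and the pairs of Ly49 genes, neighbours in this order kept it in all 12 sorted libraries. By group means, Ncr1 was above Klrc1 at 10000 cells and Klra7 was above Klra8 at 10000 and 20000 cells, and the order at each input was otherwise the same.

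Ratios between transcripts of related chains were taken in TPM over the mixed sorted cells, and they do not show which chains pair. Klrd1 was 2.09 ± 0.267 times Klrc1 in TPM (SD, n = 12) and 1.27 ± 0.139 times the sum of Klrc1, Klrc2 and Klrc3, the NKG2 chains that pair with it. Hcst, which encodes DAP10, the adaptor of NKG2D, had 0.876 ± 0.0907 times the TPM of Klrk1. The activating Klra8 and the inhibitory Klra7 were near parity, at 0.968 ± 0.173 for Klra7 over Klra8. By input that last ratio averaged 0.773 at 2500 cells, 0.918 at 5000, 1.10 at 10000 and 1.08 at 20000 cells, and the difference between inputs was not tested.

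All 10 genes were higher in sorted leukocytes than in bulk liver by edgeR's quasi-likelihood test (p adjusted by Benjamini-Hochberg), where 41.8% of the 16294 genes tested were called higher. All 10 also had each sorted library above both bulk libraries in TPM, as did 66.0% of all genes tested. Apart from Klrk1, the members had at most 8 reads in a bulk library and passed the filter on read counts through the sorted libraries. Their higher calls were therefore largely fixed in advance, as were those of genes named below that had few bulk reads. The median fitted log2 fold change of the 10 was 8.27, or 6.92 when taken from pooled counts with genes at 0 in bulk liver set to their bound, against 0.17 over all genes tested. The factors used for scaling here (TMM, trimmed mean of M values) matter for such unlike samples: with library totals alone the median was 9.40 over the members and 1.37 over all genes.

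Klrk1 had the most bulk reads and so the least counting error in its fold. It had 1938 to 3676 counts per sorted library, against 13 and 26 in the bulk libraries, with a log2 fold change of 5.63 (SE 0.17, edgeR adjusted p = 4.3e-17), a ratio of 49.5 with a 95% counting interval of 36.2 to 69.6. With library totals the ratio was 114 (83.4 to 160), and the ratios and bounds of all members were 2.31 times larger than with TMM. Klrc1 had 1003 to 2158 counts in sorted libraries, against 8 and 4 in bulk, and its log2 fold change was 6.34 (SE 0.30, edgeR adjusted p = 9.9e-13). Klrd1 had 1320 to 2213 counts in sorted libraries, against 3 and 6 in bulk, and its log2 fold change was 6.93 (SE 0.19, edgeR adjusted p = 1.2e-17). Of the reads of the 10 genes, 24.4% belonged to Klrk1 in sorted cells, against 58.2% of the 67 reads in bulk liver (exact 95% interval 45.5 to 70.2%).

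The other 7 genes had 3 or fewer reads over both bulk libraries, so their folds are ratios of few counts or lower bounds. Ncr1 had 1105 to 2214 counts per sorted library, against 0 and 3 in bulk, a ratio of 329 with a counting interval of 113 to 1597. Klre1, with 2 bulk reads in all, gave a ratio of 306 (84.8 to 2529). Klrb1c had 1131 to 2425 counts per sorted library and a single bulk read, a ratio of 1165 (209 to 46000). Klra4 also had a single bulk read and gave 326 (58.6 to 12894). These intervals cover counting error only, and they overlap one another.

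Klra7, Klra8 and Klrg1 had no read in bulk liver, against 301 to 498, 409 to 674 and 158 to 378 counts per sorted library. With 3 counts taken as the floor for the pooled bulk libraries (0.393 CPM, counts scaled to library size with TMM), Klra8 was at least 121-fold higher in sorted cells, Klra7 at least 97.1-fold and Klrg1 at least 53.7-fold. The floor is a bound for genes with no bulk read and not a limit of detection. Klre1, at 0.262 CPM, and Klrb1c and Klra4, at 0.131 CPM each, had bulk reads below it.

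**Figure D2:**
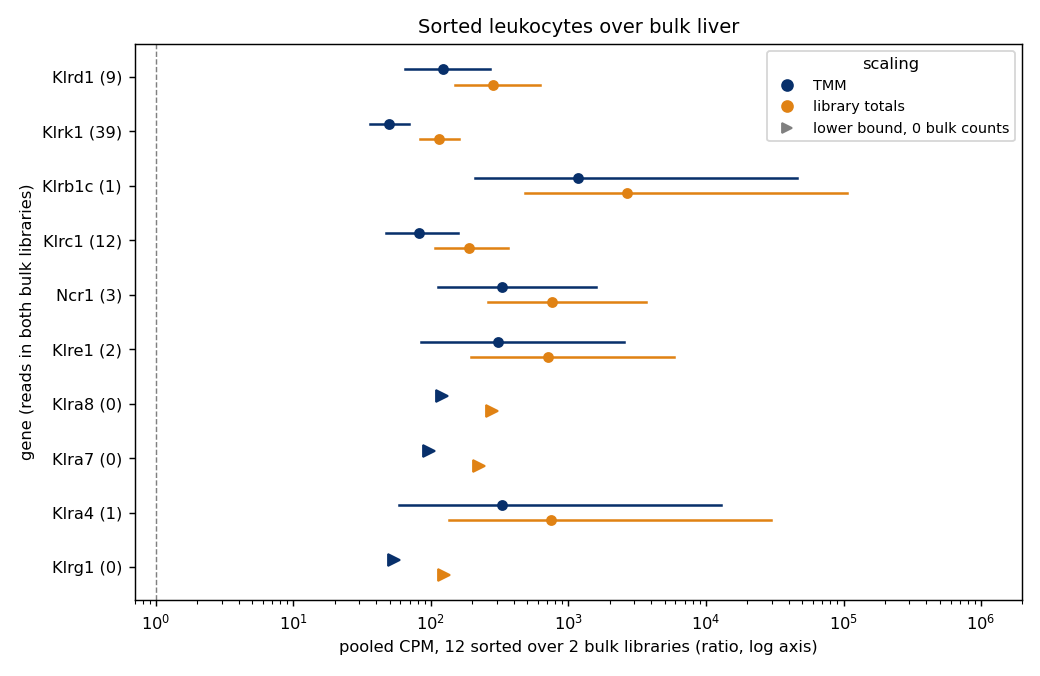
Ratio of pooled CPM in the 12 sorted libraries over the 2 bulk libraries for each gene (log axis), with TMM scaling or library totals; dots with lines are ratios with 95% counting intervals, arrowheads are lower bounds for genes with 0 bulk counts, and the number after a gene is its count over both bulk libraries. All ratios and bounds lie above 49 with TMM, and those with library totals lie further right for each gene.

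The rise held at each input on its own. All 10 genes were higher than in bulk liver at 2500, 5000, 10000 and 20000 cells by the same test, where 40.5%, 40.6%, 40.7% and 41.0% of all genes were called higher. These 4 comparisons share the same 2 bulk libraries, so they are not independent of one another. The limit set by the filter applies to each of them.

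Between inputs no member passed the test, in comparisons that share the 20000-cell libraries. With edgeR's quasi-likelihood test over the 12 sorted libraries, 0 of 10 were called at 2500 against 20000 cells (0.419% of 14795 genes), at 5000 against 20000 cells (0.0879%) or at 10000 against 20000 cells (0.304%). The slope on log2 cell number called 0 of 10 (0.0811% of all genes), as did the test of any difference between the 4 inputs (0.297%). At an unadjusted p under 0.05 the counts were 3 of 10 at 2500 against 20000 cells, 1 of 10 in each of the other 2 pairs, 3 of 10 for the slope and 2 of 10 for any difference. Over all genes, the share with an unadjusted p under 0.05 was 13.3% at 2500, 8.13% at 5000 and 10.2% at 10000 against 20000 cells, 10.7% for the slope and 10.8% for any difference, so 1 of 10 members is about the background.

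Klrd1 came closest. After TMM over the sorted libraries it had 153, 151 and 153 CPM at 2500 cells, 156, 154 and 164 CPM at 5000 cells, 159, 151 and 173 CPM at 10000 cells, and 200, 171 and 186 CPM at 20000 cells. The 2500-cell libraries all lay below the 20000-cell libraries, which was so for no other member, while 17.0% of the 14795 genes had groups that did not overlap. The log2 fold change of 2500 over 20000 cells was -0.29 (SE 0.07, edgeR adjusted p = 0.0806), and its slope was 0.09 per doubling of cell number (SE 0.02, edgeR adjusted p = 0.162). DESeq2 gave an adjusted p of 0.0145 for the same contrast, so the call depends on the tool.

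Klra7, the inhibitory Ly49G2, had the widest difference. It had 32.9, 30.5 and 46.2 CPM at 2500 cells, 45.7, 34.6 and 47.8 CPM at 5000 cells, 45.2, 42.9 and 45.5 CPM at 10000 cells, and 58.8, 41.5 and 56.6 CPM at 20000 cells. The groups overlapped, since 1 library of 2500 cells was above 1 library of 20000 cells. The log2 fold change of 2500 over 20000 cells was -0.52 (SE 0.16, edgeR adjusted p = 0.164). Without replicate 3 of the 2500-cell group it was -0.73 with an adjusted p of 0.046, and with only genes lacking any count removed the adjusted p was 0.00293.

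Klra4, the activating Ly49D, had 40.3, 39.3 and 48.7 CPM at 2500 cells, against 60.9, 47.3 and 52.5 CPM at 20000 cells. These groups overlapped, and the log2 fold change was -0.32 (SE 0.12, edgeR adjusted p = 0.263). The other 7 members had log2 fold changes of 2500 over 20000 cells between -0.21 for Klre1 and 0.09 for Klrg1, with edgeR adjusted p from 0.449 to 0.954. For Ncr1 the change was -0.08 with a 95% interval of -0.28 to 0.12, and for Klrk1 it was 0.03 with an interval of -0.12 to 0.19. A p above the threshold does not show that the inputs gave equal levels. Over all 10 members the median was -0.07, with 7 below 0, against 0.01 over all genes tested.

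**Figure D3:**
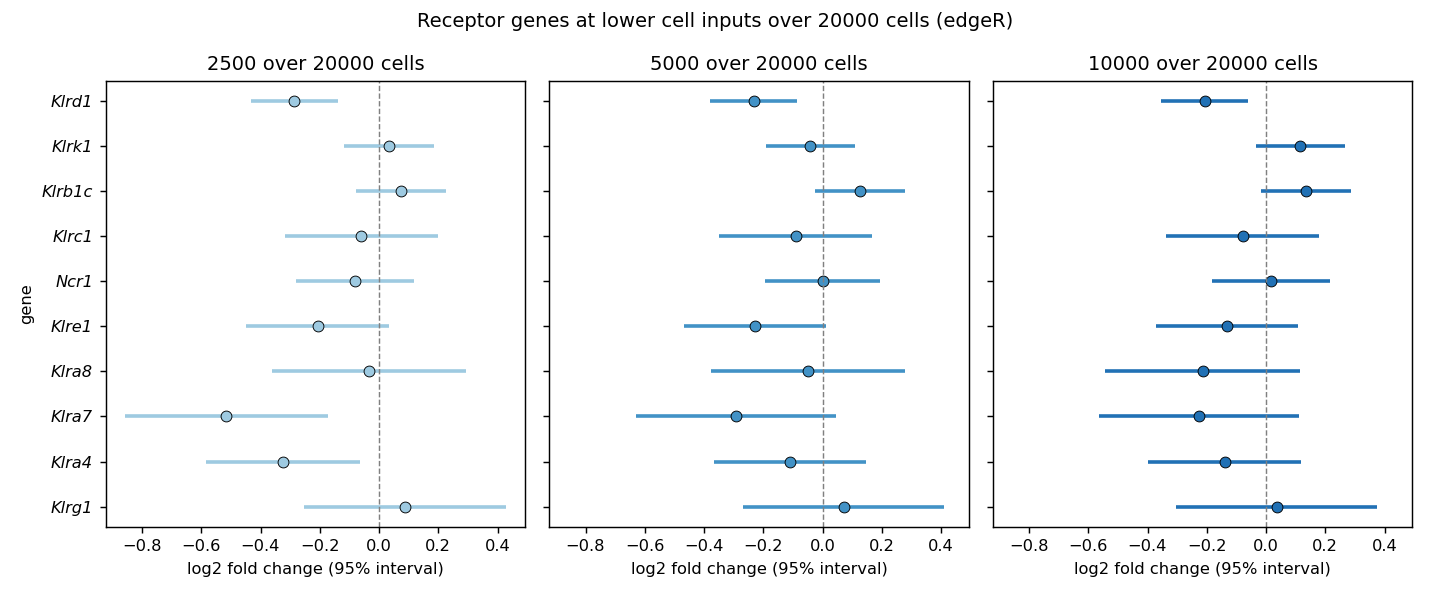
Log2 fold change of each receptor gene at 2500, 5000 and 10000 cells over 20000 cells (x axis; dots are edgeR estimates and lines 95% intervals, 3 libraries per group). Klrd1 lies left of 0 in all 3 panels, Klra7 at 2500 cells is the furthest from 0 at -0.52, and most other intervals span 0.

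The spread between replicate libraries was widest at 2500 cells for 7 of the 10 members. The coefficient of variation of CPM across the 3 libraries had a median over the 10 members of 13.8% at 2500 cells, 5.53% at 5000, 6.76% at 10000 and 10.6% at 20000 cells. Counting error alone would give medians of 3.16%, 2.88%, 3.01% and 3.26%. Over all genes tested the median was 14.0% at 2500 cells, 10.7% at 5000, 9.80% at 10000 and 9.71% at 20000 cells. Klrd1 had the narrowest spread at 2500 cells, 0.985%, which is below the 2.67% that counting error alone would give it. Klrg1, the gene with the fewest reads, had 24.9% there, against 6.68% from counting error. At 20000 cells Klrg1 had 4.48%, against 7.45% from counting error.

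In TPM the lowest or highest level of several members fell in the 2500-cell group. Replicate 2 of that group was the lowest of all 12 sorted libraries for 6 of 10 members (Ncr1, Klre1, Klra4, Klra7, Klra8 and Klrg1), and replicate 3 was the highest for 4 (Klrb1c, Klrk1, Klrc1 and Klra8). Replicate 1 of the 20000-cell group was the highest for Klrd1, Klre1 and Klra4. This depends on the unit. In CPM with TMM, Klrb1c (191 CPM) and Klrk1 (326 CPM) were highest in replicate 3 of the 10000-cell group. Klra8 was lowest in replicate 1 of the 10000-cell group (42.8 CPM). The mean centred log2 CPM of the 10 members ran from -0.22, in replicate 2 of the 2500-cell group, to 0.21, in replicate 1 of the 20000-cell group.

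Genes whose level followed that mean closely were Chchd1 (Pearson r = 0.96), Atp6v1g1 (0.93), Park7 (0.93) and Id2 (0.92), which are among the 5 highest of 10086 genes with a mean of at least 5 CPM. These r describe 12 libraries that differ in cell number and depth and are given with no test. Id2 encodes a transcriptional inhibitor required by NK cells and ILC. Id2 also had 182 and 195 TPM in bulk liver, where the members were near 0, so its level does not measure these cells alone. Of the single members, Klre1 followed the mean of the other 9 most closely (r = 0.91) and Klrg1 least (r = 0.09).

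Further receptors of these cells were also higher. Of 23 further NK receptor genes, 22 were tested and all 22 were higher in sorted cells than in bulk liver by edgeR (median log2 ratio with bounds 5.56). Il2rb, the shared IL-2 and IL-15 receptor chain, had 286 ± 31.5 TPM in sorted cells (SD, n = 12), against 0.21 and 0.39 TPM in bulk liver. Fcgr3, the low-affinity IgG receptor CD16, had 129 ± 13.2 TPM, against 5.25 and 6.86 TPM in bulk liver. It had 127 bulk reads and a log2 fold change of 2.65, and which cells gave its reads was not tested. Klrh1 had no matching identifier, and 0 of the 22 were called at 2500 against 20000 cells.

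Of 18 genes for adaptors and signalling, 17 were tested, 16 were higher in sorted cells and 1, Ptpn11, was lower, where 38.5% of all genes were called lower. Tyrobp encodes DAP12, the adaptor of Ly49D and Ly49H, and had 1560 ± 91.4 TPM in sorted cells, against 25.2 and 34.4 TPM in bulk liver. Fcer1g encodes the FcRγ chain, which serves NK1.1 and NKp46, and had 1067 ± 93.8 TPM, against 28.0 and 27.2 TPM in bulk liver. Myeloid cells also express both. Ptpn11, the phosphatase SHP2, had a log2 fold change of -0.76 (SE 0.10, edgeR adjusted p = 1.5e-06), which turned to 0.45 with library totals. Fcer1g was the only gene of this list called at 2500 against 20000 cells, at -0.29 (SE 0.06, edgeR adjusted p = 0.0409).

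The ligands divided between the fractions. Of 8 genes for ligands of NKG2D, 4 were tested, and Ulbp1 and H60b were higher while Raet1d and Raet1e were lower in sorted cells. Raet1d had 0.375 ± 0.550 TPM in sorted cells, against 5.84 and 5.61 TPM in bulk liver, a log2 fold change of -5.97 (SE 0.61, edgeR adjusted p = 3.4e-08). Raet1e had 0.210 ± 0.272 TPM in sorted cells, against 2.81 and 2.52 TPM in bulk liver. Ulbp1 and H60b were low in both, at 1.56 ± 0.437 and 1.46 ± 0.451 TPM in sorted cells, against at most 0.07 and 0.25 TPM in bulk liver. All 4 kept their direction with library totals.

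Of 10 ligands of the other receptors, 4 were higher in sorted cells (H2-D1, H2-T23, Cd48 and Clec2i) and 5 were lower (B2m, Cdh1, Clec2d, Nectin2 and Pvr) by edgeR, while H2-K1 did not pass. With library totals B2m, at -0.79, and Pvr, at -0.65, turned to 0.42 and 0.56, and 7 of 10 were called higher. The lower calls that kept their direction were for 3 ligands. Cdh1, E-cadherin, the ligand of KLRG1, had 9.61 ± 1.93 TPM in sorted cells, against 28.3 and 31.5 TPM in bulk liver. Clec2d, the ligand of the inhibitory NKR-P1B, had 2.73 ± 0.912 TPM in sorted cells, against 14.5 and 14.7 TPM in bulk liver. Nectin2, a ligand of DNAM-1, had 1.37 ± 1.04 TPM in sorted cells, against 40.6 and 38.2 TPM in bulk liver. H2-T23, which encodes the Qa-1 heavy chain bound by CD94, had 440 ± 19.5 TPM in sorted cells, against 123 and 124 TPM in bulk liver. The size of this rise depends on the scaling. For H2-T23 the edgeR fit gave 0.18 on the log2 scale with TMM (SE 0.05, edgeR adjusted p = 0.00413) and 1.38 with library totals.

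**Figure D4:**
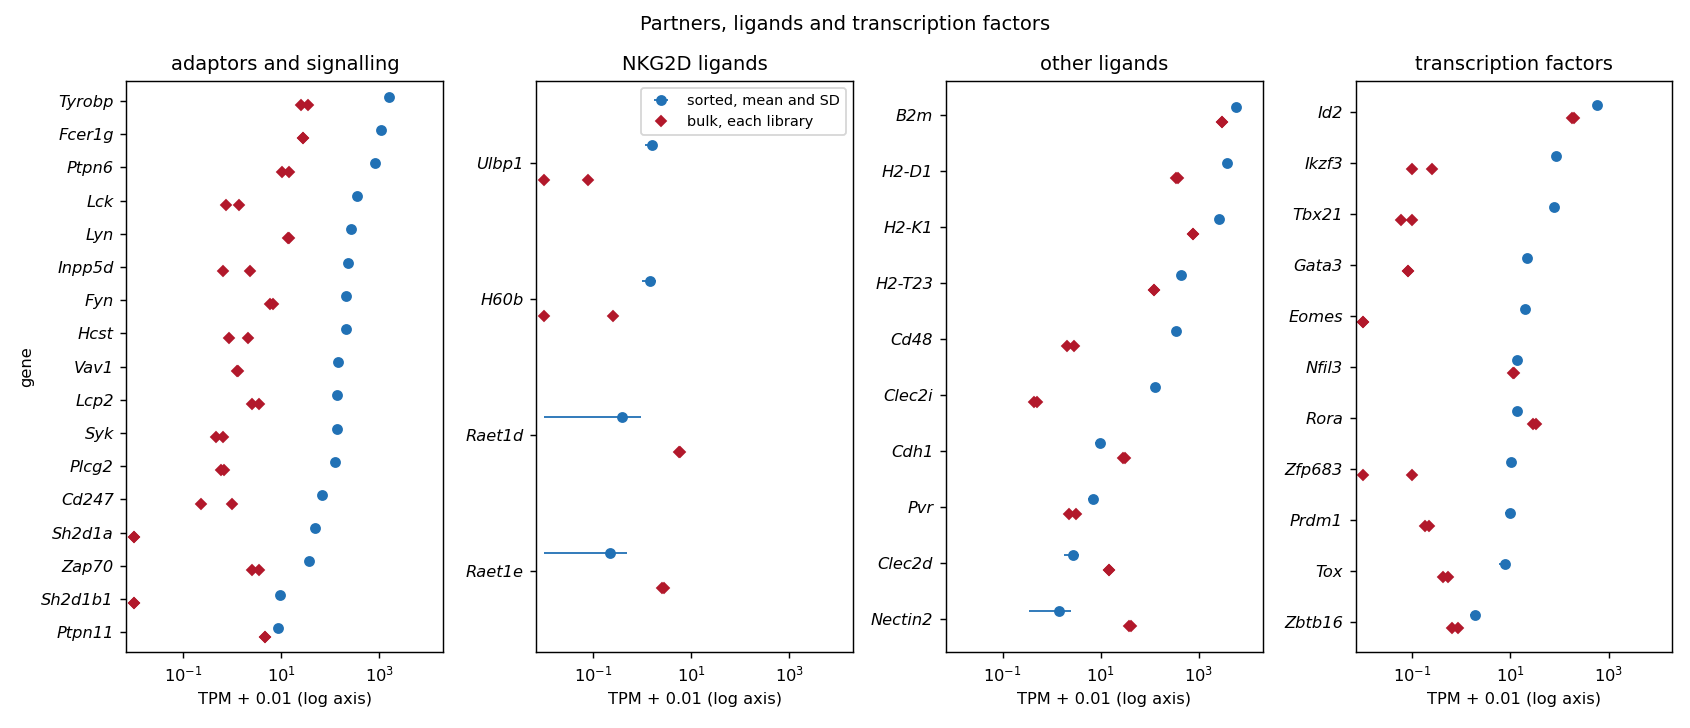
TPM plus 0.01 (log axes) of adaptor and signalling genes, NKG2D ligands, other ligands and the 11 most abundant transcription factors among the tested genes; circles are the mean of 12 sorted libraries with the SD, diamonds the 2 bulk libraries. Tyrobp reaches 1560 TPM in sorted cells, while Raet1d, Raet1e, Cdh1, Clec2d and Nectin2 lie higher in bulk liver.

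Transcription factors of NK cells and ILC were mixed. Of 12 tested, 7 were higher in sorted cells, 3 were lower, among them Nfil3 and Rora, and Id2 and Zbtb16 did not pass. Id2 had 581 ± 40.7 TPM in sorted cells, against 182 and 195 TPM in bulk liver, with a log2 fold change of -0.12 (edgeR adjusted p = 0.181) that became 1.09 with library totals. Ikzf3 had 83.8 ± 7.78 TPM in sorted cells, against 0.24 and 0.09 TPM in bulk liver. Tbx21 (T-bet) and Eomes, named after their values were seen as the factors that define ILC1 and NK cells, had 78.1 ± 7.30 and 19.7 ± 3.39 TPM in sorted cells. In bulk liver Tbx21 had 0.05 and 0.09 TPM, and Eomes was listed at 0. Nfil3 was lower by 1.44 on the log2 scale with TMM (SE 0.13, edgeR adjusted p = 2.7e-09) but did not pass with library totals (-0.24, edgeR adjusted p = 0.1004). In TPM Nfil3 was not lower, with 13.9 ± 1.44 TPM in sorted cells, against 11.9 and 11.1 TPM in bulk liver. Rora was lower under both scalings.

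Genes of ILC subsets and effector genes were mostly higher in sorted cells. Of 12 subset genes, 10 were tested, 8 were higher, Itga1 was lower and Il23r did not pass, while Areg and Il22 had too few counts. Cxcr6 had 205 ± 21.2 TPM in sorted cells, against 0.13 and 0.25 TPM in bulk liver, and Il7r had 61.9 ± 6.57 TPM, against 0.04 and 0.14 TPM. They were the most abundant of the 10 tested, and which cells gave their reads was not tested. The least abundant, Il1rl1 and Il23r, had 1.03 ± 0.476 and 0.438 ± 0.329 TPM in sorted cells. Itga1 (CD49a), at -0.73, turned to 0.47 with library totals. All 9 granule and effector genes were higher, among them Ccl5 (919 ± 63.8 TPM, against 0.32 and 1.22 TPM in bulk liver) and Nkg7 (864 ± 63.9 TPM, against 1.63 and 0.72 TPM). Of 10 cytokine receptors 9 were higher, led by Il2rg (641 ± 48.8 TPM, against 2.36 and 1.92 TPM) and Il2rb, and Il15ra was lower.

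T cell, B cell, monocyte and neutrophil genes were also higher in sorted cells, while Kupffer cell genes were mostly lower with TMM. The 12 T cell genes, led by Trbc2 and Trac, were all higher in sorted cells, with a summed level of 2588 to 3179 TPM, against 4.05 and 5.61 TPM in bulk liver. The 7 B cell genes summed to 3538 to 4162 TPM in sorted cells, against 4.63 and 7.07 TPM in bulk liver, and 8 monocyte and neutrophil genes to 13776 to 17069 TPM, against 135 and 145 TPM. The 12 hepatocyte genes were all lower and took 0.0127 to 0.0207% of counts in sorted libraries, against 7.09 and 7.15% in bulk liver. Ptprc, the gene of the sorted marker CD45, had 976 ± 51.5 TPM in sorted cells, against 2.27 and 3.44 TPM in bulk liver. Of the other lists, 5 of 5 general leukocyte genes were higher and 10 of 10 endothelial and stellate genes lower. Of 10 Kupffer cell genes, Adgre1 was higher and 9 were lower, but with library totals 5 were higher and 0 lower. The part of T cells in the receptor levels was not tested. Nor was the part of T and B cells in the levels of the transcription factors and ILC subset genes. Between 2500 and 20000 cells, C1qa and Cd5l of the 10 Kupffer cell genes and Cd6 of the T cell genes were higher at 2500 cells, and Ly6c2 of the monocyte genes and Gzmk of the effector genes were lower by edgeR.

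The promoters, 250 bases before to 50 after the start in RefSeq on GRCm38.p6, had an entry for 8 of the 10 genes. The letters ACCACA or TGTGGT, a core bound by RUNX factors, occurred on either strand in 5 of the 8 (Ncr1, Klrb1c, Klrk1, Klrc1 and Klre1) and in 16.8% of 32851 promoters of the same length. The windows of Klrb1c (chr6:128788592-128788891) and Klre1 (chr6:129577963-129578262) lie wholly inside the GENCODE M21 gene, away from its annotated start. The T-box letters AGGTGTGA or TCACACCT occurred in 0 of the 8 and in 1.28% of all promoters. The Ncr1 promoter (chr7:4337474-4337773, plus strand) holds both orientations of the RUNX letters and the Klrk1 promoter (chr6:129623815-129624114, minus strand) holds 1, and both are shown with these letters in capitals.
Ncr1 promoter: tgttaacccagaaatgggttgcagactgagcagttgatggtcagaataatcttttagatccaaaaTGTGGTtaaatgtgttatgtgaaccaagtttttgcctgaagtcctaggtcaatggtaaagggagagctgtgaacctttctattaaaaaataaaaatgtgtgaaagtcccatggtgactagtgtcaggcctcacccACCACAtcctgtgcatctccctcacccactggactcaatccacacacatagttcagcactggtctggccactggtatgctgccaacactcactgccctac
Klrk1 promoter: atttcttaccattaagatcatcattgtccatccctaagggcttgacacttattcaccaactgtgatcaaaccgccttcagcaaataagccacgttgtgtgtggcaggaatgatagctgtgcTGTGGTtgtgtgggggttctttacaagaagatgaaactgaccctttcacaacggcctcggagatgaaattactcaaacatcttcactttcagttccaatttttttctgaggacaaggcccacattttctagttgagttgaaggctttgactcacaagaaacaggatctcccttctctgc
The promoters of the 3 Ly49 genes held neither motif and were 79.9 to 86.6% identical to one another. A relation between promoter sequence and level was not tested. A match describes letters in the window and does not show binding.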

How the data were processed

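Leukocytes carrying CD45 and bulk liver were profiled with SMART-seq v4 cDNA and tagmentation libraries, per the labels' protocols. The authors deposited raw counts per gene and TPM for 14 libraries. The build was GRCm38 and the tools were featureCounts 1.5.1, STAR 2.5.2b, DESeq2 1.34.0, RSEM 1.3.0 and FastQC 0.11.5, per the submitters' processing notes. Their roles, the annotation release, the strand setting and filters are not given in the sources used here. A deposited table of variance-stabilised values was not used, and 0 columns were left unmapped. Klra4 has 1 count in a bulk library whose TPM is listed at 0, so these TPM do not derive from that count table alone.

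Total counts per library ran from 6723357 to 14496314. Counts were tested with the edgeR 4.0.16 quasi-likelihood test in R 4.3.3 (TMM factors, filterByExpr, robust fit), with Benjamini-Hochberg adjustment over all genes tested and a threshold of 0.05. Sorted against bulk liver used all 14 libraries, with the mean of the 4 inputs against bulk. Input contrasts used the 12 sorted libraries. Prior count was 2 for log2 CPM. Levels between genes are compared in TPM. Ratios have exact 95% counting intervals, and floors are 3 counts. Alternatives were DESeq2 1.42.0, limma-trend 3.58.1 on log2(TPM + 1) or log2(TPM + 0.1), other scaling, filters, covariates and left-out libraries. The code was tested on simulated data. Replicate numbers were not used as pairs.

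The members and the 15 further lists (166 entries, 162 matched) were chosen with earlier results of these data known. All 10 members, the 2 tested genes of each list with the highest sorted TPM, and genes in counts of 5 or fewer are named. Coordinates and transcripts are from GENCODE M21, promoters from RefSeq. Some genes that this rule would name are not reported here.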

Additional observations from a re-analysis of the deposited data

How the results depend on the processing

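In all alternatives run, the 10 members were higher in sorted cells than in bulk liver. Depth in bulk liver limits the folds of 7 members to ratios of 3 or fewer reads or to bounds. Equal replicate numbers did not pair libraries: the 18 correlations of same-numbered libraries ran from -0.0997 to 0.0861, and 2 of 12 libraries lay closest to one of their own number. The replicate block left 10 members higher in sorted cells and 0 called between inputs, and called 0 genes for the slope, against 12 without it. Between inputs 0 members were called except in 6 cases. For any difference between inputs, removing only genes with no count gave 1 and DESeq2 gave 1. For 2500 over 20000 cells, the same wider filter gave 2 (Klrd1 and Klra7), DESeq2 gave 1 (Klrd1), and leaving out single libraries gave 0 to 1, the 1 being Klra7 without replicate 3 of 2500 cells. For the slope DESeq2 gave 1. Why the tools differ was not tested.

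Small differences of 2500 over 20000 cells that passed no test changed sign when a library was left out. Over the left-out libraries, Ncr1 ran from -0.1552 to 0.025 on the log2 scale, above 0 without 2500-cell replicate 2 or 20000-cell replicate 1 (0.0035). Klrk1 ran from -0.0656, without 2500-cell replicate 3, to 0.0818. Klrc1 ran from -0.2045 to 0.104, above 0 without 2500-cell replicate 1 or 20000-cell replicate 1 (0.019). Klra8 ran from -0.199 to 0.1162, above 0 without 2500-cell replicate 2 or 20000-cell replicate 1 (0.0701). Klrg1 ran from -0.0767, without 2500-cell replicate 1, to 0.2762.

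Counts over all genes moved by more than 1.5 times in 73 cases, all between inputs. For 2500 over 20000 cells 62 genes were called, with 5 to 397 over the alternatives, and for 5000 over 20000 cells 13, with 2 to 203. For 10000 over 20000 cells the count was 45, with 4 to 286, for the slope 12, with 0 to 122, and for any difference 44, with 7 to 605. The highest came with the wider filter, or for the slope with DESeq2, and the lowest with limma-trend on TPM, to which the slope adds the replicate block and several left-out libraries, and 10000 over 20000 cells adds the hepatocyte share as a covariate. With that covariate the counts were 7, 4 and 4 for 2500, 5000 and 10000 over 20000 cells, 6 for the slope and 17 for any difference.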
